A study of Mus musculus with 63 samples.

Results

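Genes of the extracellular matrix were followed through every RNA-seq library of a mouse study of *Chaserr*, a long noncoding RNA gene, and of its neighbour *Chd2*, which encodes a chromatin remodeller. The list holds 40 of the 24990 genes in the deposited expression tables, taken by name as interstitial and basement membrane matrix genes. It has 6 fibrillar collagens, 7 basement membrane and anchoring collagens, 9 other collagens, 4 genes of fibronectin and elastic fibres, 3 crosslinking enzymes, 6 proteoglycans and 5 matricellular proteins. The row of *Col7a1* also carries the microRNA gene *Mir711* and that of *Loxl2* carries *Mir6950*, so these values hold both, while the other 38 members have a row of their own.

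The study measured RNA in whole embryos at E9.5 and E13.5, in adult brain and in mouse embryonic fibroblasts (mEFs), and in a pulldown of the CHD2 protein from Neuro2a cells. Embryos and brains came as 3 WT and 3 *Chaserr*+/- libraries for each tissue. The mEFs came as 4 sets, each with 3 WT libraries of its own, beside 3 *Chaserr*+/-, 3 *Chaserr*-/-, 2 *Chd2*m/m or 3 *Chaserr*-/- *Chd2*m/m libraries. Accessible chromatin was mapped by ATAC-seq in 12 mEF libraries, from the *Chaserr*-/- and the double mutant sets.

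The deleted *Chaserr* allele lacks the promoter and the first exon, and the m allele of *Chd2* carries a frameshift in exon 3. WT mEFs of the *Chaserr*+/- and *Chaserr*-/- sets shared a pregnancy with their mutants. Those of the other sets were matched from crosses, and in the double mutant set the labels name the *Chaserr*+/- *Chd2*+/m cross for the WT cells and the *Chd2*+/m cross for the mutants. The mEFs were primary cultures from E13.5 embryos without head and liver, grown in serum, so they are the cells that survived and divided in the dish. The labels name no treatment, strain or sex, give no age for the adult brains, and do not say whether each library of a group came from its own animal or culture, so the p-values measure the spread between these libraries. Embryo libraries were made with the TruSeq kit and mEF libraries with the SENSE kit, so kit and tissue cannot be told apart between them. Brain replicates 1 and 2 were SENSE libraries and replicate 3, WT and *Chaserr*+/-, was a TruSeq library.

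The embryo, brain and mEF libraries held between 9672637 and 33192002 expected counts, and the pulldown libraries between 7621335 and 20050508. The targeted gene followed the labels: *Chaserr* averaged 0 CPM (counts scaled to a common library size) in *Chaserr*-/- mEFs against 5.24 in their WT cells and 0.0525 against 38.3 in the double mutants, and each *Chaserr*+/- library lay below all WT libraries of its set. *Chd2* RNA was higher in every mutant library, *Chd2*m/m included, so the frameshift allele cannot be read from its level. All 8 fibroblast markers stood at 1 TPM or more in every WT mEF library. Their summed level was between 4396 and 6236 TPM there and between 1254 and 1345 TPM in WT E13.5 embryos. Erythroid markers summed to between 28643 and 44836 TPM in those embryos and to at most 881 TPM in WT mEFs, and neural markers to between 2019 and 3261 TPM in WT brains and at most 69.2 TPM in WT mEFs.

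Fibroblasts are the main makers of interstitial matrix. Fibrillar collagens give tissues tensile strength, type IV collagen forms the sheet of basement membranes, elastin and the fibrillins give recoil, lysyl oxidases crosslink collagen and elastin, small leucine-rich proteoglycans set fibril diameter, and matricellular proteins tune how cells adhere to the whole. Brain tissue holds little fibrillar collagen outside its vessels and coverings, and an E9.5 embryo has yet to lay down most of its connective tissue.

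Levels are in TPM, transcript abundance that corrects for transcript length and sums to the same total in each library, and differences are log2 ratios of counts scaled by edgeR's TMM factors. A gene was called between tissues at an adjusted p under 0.05 and a difference of at least 2-fold, and between genotypes at an adjusted p under 0.05. Together the 40 genes took between 0.113% and 0.145% of all TPM in WT brains, between 0.170% and 0.189% in WT E9.5 embryos, between 0.541% and 0.593% in WT E13.5 embryos, and between 1.09% and 2.68% in WT mEFs. The 4 ranges did not overlap. In bulk RNA fewer cells of a type and less RNA per cell cannot be told apart.

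WT mEFs carried more matrix RNA than WT brains for nearly the whole list. Of the 40 members 37 were called higher in mEFs than in brain and 1 lower, where 26.2% of the 16364 genes tested were called higher and 33.2% lower, and the members' median difference was 5.01 against −0.11 for all genes. Against E9.5 embryos 27 members were called higher and 4 lower, beside 22.5% and 28.3% of all genes, with a median of 3.17 against −0.20.

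Against E13.5 embryos, the age at which the mEFs were taken, the list split. Of the members 18 were called higher and 9 lower, beside 16.8% and 31% of all genes, and the median was 0.87 against −0.29. That comparison depended on the scaling. In a limma fit of log2(TPM + 1) the median of all genes moved to −0.72 and that of the members to 0.18, with 14 called higher and 12 lower. The embryos themselves differed by age, with 29 members called higher at E13.5 than at E9.5 and 2 lower, beside 22.9% and 10.7% of all genes, and a median of 1.81 against 0.04.

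**Figure D1:**
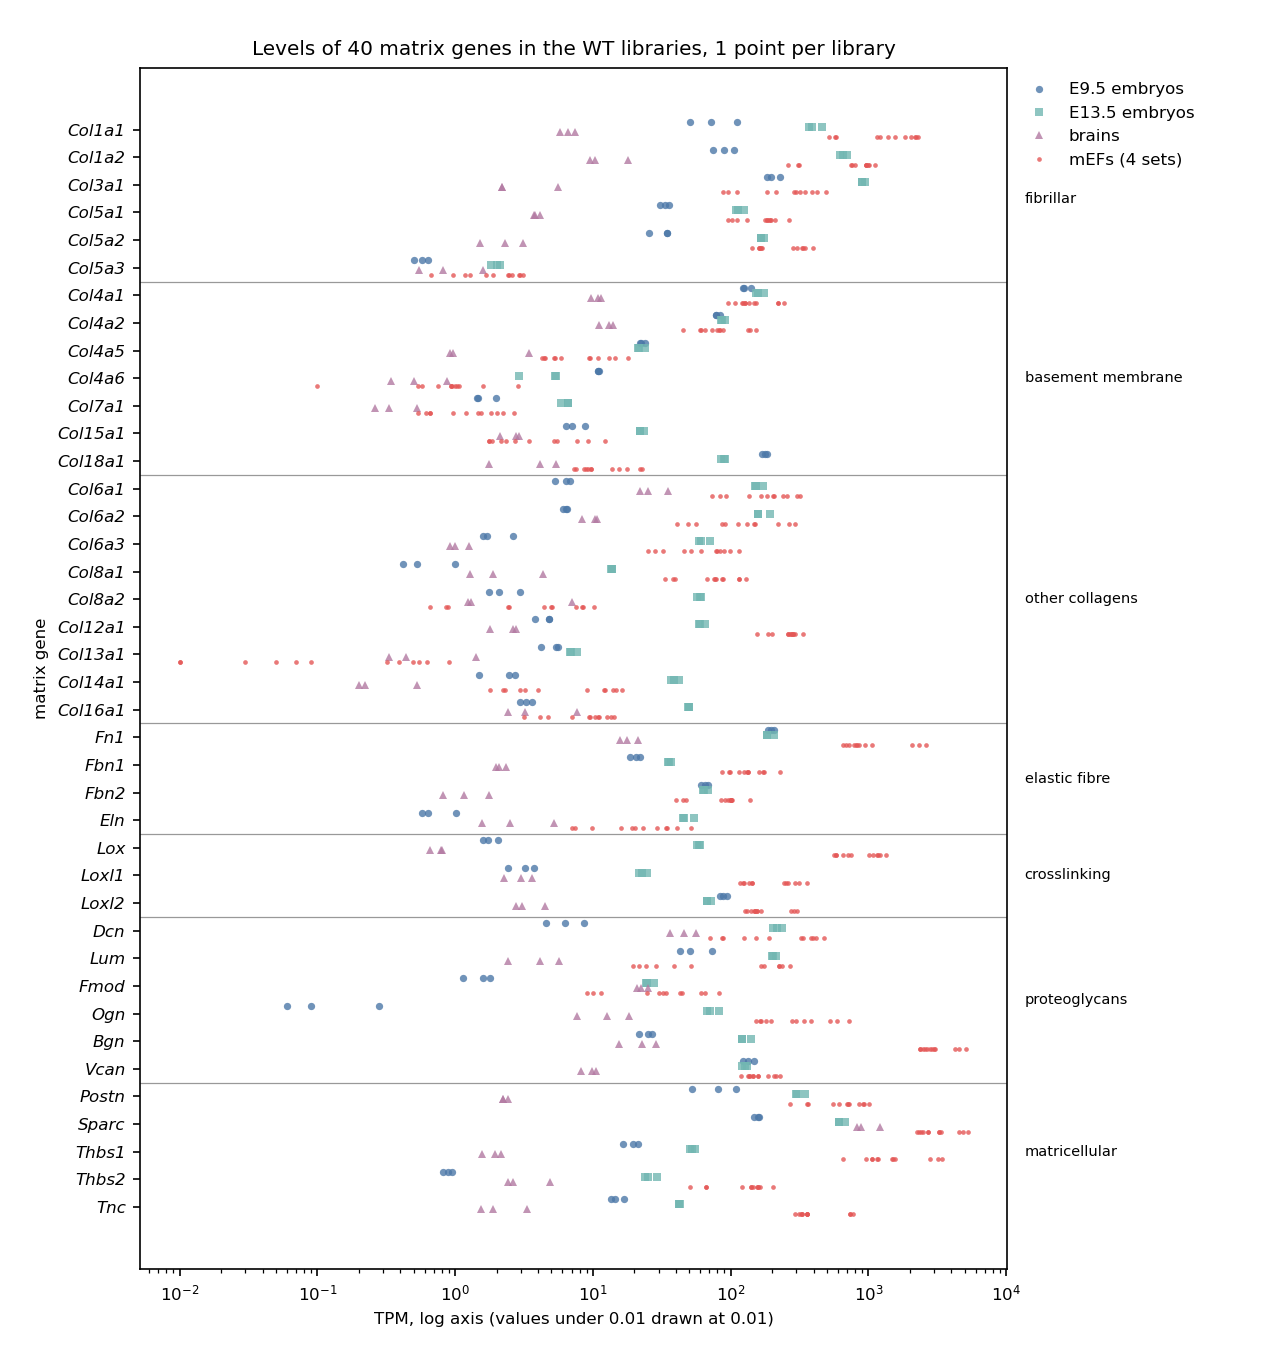
Level of each of the 40 matrix genes in every WT library, in TPM on a log axis, with 1 point per library (12 of mEFs and 3 each of brain and of E9.5 and E13.5 embryos) and values under 0.01 drawn at 0.01. The mEF points lie to the right of the brain points for most genes, with *Col13a1* as an exception, and *Bgn*, *Lox* and *Thbs1* stand well above both embryo ages.

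Type I collagen, the main fibril of skin and bone, is built from *Col1a1* and *Col1a2*. *Col1a1* stood at 111.4, 72.4 and 50.3 TPM in the E9.5 libraries, at 462.5, 386.2 and 372.4 TPM at E13.5, and at 5.79, 6.54 and 7.45 TPM in brain. In the 12 WT mEF libraries it ran from 519.7 TPM through a median of 1474 to 2291 TPM. Every mEF library was above every embryo and brain library, with log2 differences of 2.35 against E13.5 (SE 0.18, adjusted p = 3.705e-10), 4.43 against E9.5 (SE 0.21, adjusted p = 1.794e-13) and 8.18 against brain (SE 0.25, adjusted p = 9.806e-17). By its median level in mEFs it ranked 102 of all genes. The promoter of *Col1a2* is shown because this chain, unlike its partner, overlapped the E13.5 embryos in mEFs, as 300 bases from 250 before to 50 after the annotated start in the mm9 assembly, read 5′ to 3′ on the gene's strand, with capitals for the letters TATAAA and for CCAAT on either strand (ATTGG on the printed one). In this window, chr6:4455243-4455542 on the plus strand, CCAAT lies just inside the transcript and TATAAA is not among the letters.
Col1a2: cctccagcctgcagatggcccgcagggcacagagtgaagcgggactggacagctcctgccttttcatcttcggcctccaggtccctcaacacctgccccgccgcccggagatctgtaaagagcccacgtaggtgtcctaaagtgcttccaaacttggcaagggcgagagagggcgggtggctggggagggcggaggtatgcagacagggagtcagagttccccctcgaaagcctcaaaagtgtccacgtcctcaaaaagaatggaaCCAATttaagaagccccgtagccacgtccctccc

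*Col1a2*, whose window holds no TATAAA, stood at 105.1, 89.1 and 74.6 TPM at E9.5, at 693.3, 652.3 and 624.6 TPM at E13.5 and at 9.59, 10.3 and 18.03 TPM in brain. Its mEF libraries ran from 260.5 TPM through 876.3 to 1120 TPM and so overlapped the E13.5 embryos, and the log2 difference of 0.75 (adjusted p = 9.32e-05) was under 2-fold. The partners of 1 fibril thus differed in their distance from the embryo. *Col3a1*, the type III collagen of distensible tissues, went the other way. It stood at 228.2, 196.2 and 182.9 TPM at E9.5, at 936.6, 903.6 and 890.6 TPM at E13.5, at 2.20, 2.18 and 5.6 TPM in brain and between 87.3 and 489.8 TPM in mEFs (median 292.8 TPM). Every mEF library was below every E13.5 library, a log2 difference of −1.27 (SE 0.17, adjusted p = 1.004e-06), and the gene was still called higher than in brain, by 6.68. Of the type V collagens, which nucleate fibrils, *Col5a1* and *Col5a2* were called higher than at E13.5, though in TPM both overlapped the embryos. *Col5a1* ran from 95.7 to 262.8 TPM in mEFs against 124.1, 112.3 and 109.9 TPM (log2 1.17). *Col5a2* ran from 142.6 to 397.2 TPM against 165.7, 174.1 and 166.8 TPM (log2 1.12). *Col5a3* was the scarce member of the family, at most 3.12 TPM in any WT library.

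Type IV collagen is the network of every basement membrane, and its alpha1 and alpha2 chains come from *Col4a1* and *Col4a2*, which lie head to head. Their annotated starts are 21 bases apart on chromosome 8, on opposite strands, and each lies inside the annotated transcript of the other gene. The window of *Col4a1* is shown, chr8:11312777-11313076 on the minus strand, with capitals for ATTGG, the only one of the marked motifs in it. The window of *Col4a2*, chr8:11312555-11312854 on the plus strand, shares only part of these bases. Its CCAAT, shortly before the *Col4a2* start, is cut by the edge of the printed window.
Col4a1: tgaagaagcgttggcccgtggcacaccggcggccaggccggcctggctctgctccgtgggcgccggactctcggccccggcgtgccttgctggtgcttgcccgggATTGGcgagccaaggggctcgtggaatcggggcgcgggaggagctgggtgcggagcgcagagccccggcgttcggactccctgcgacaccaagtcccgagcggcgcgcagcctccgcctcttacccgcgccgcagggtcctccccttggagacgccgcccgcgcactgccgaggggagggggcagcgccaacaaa
*Col4a1* stood at 124.1, 123.1 and 139.3 TPM at E9.5, at 173.9, 153.1 and 159.0 TPM at E13.5, at 10.9, 9.65 and 11.5 TPM in brain and between 95.1 and 242.2 TPM in mEFs (median 131.8 TPM). Its mEF libraries spanned both embryo ages. It was called only against brain, by 4.33 (SE 0.13, adjusted p = 4.731e-17), and its log2 difference from E13.5 of 0.52 turned to −0.15 on the TPM scale. *Col4a2* had the same order, with 77.8, 78.4 and 83.4 TPM at E9.5, 90.6, 85.6 and 86.6 TPM at E13.5, 13.01, 11.1 and 14.1 TPM in brain and between 45.2 and 153.7 TPM in mEFs (log2 0.60 against E13.5, −0.08 on the TPM scale).

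The rest of the basement membrane group was lower in mEFs than in E13.5 embryos or not called. Of its 7 members none was called higher than at E13.5 and 4 were called lower. *Col18a1*, the source of endostatin, stood at 176.5, 169.1 and 182.2 TPM at E9.5, at 90.2, 89.5 and 84.5 TPM at E13.5 and between 7.29 and 22.6 TPM in mEFs. Every mEF library was below every embryo library (log2 −3.50 against E9.5, adjusted p = 6.696e-14, and −2.22 against E13.5, adjusted p = 1.332e-10). *Col4a6*, an alpha6 chain of specialised basement membranes, fell with embryo age from 10.97, 10.9 and 11.12 TPM to 5.30, 2.92 and 5.36 TPM, and ran from 0.10 to 2.86 TPM in mEFs. *Col15a1* and *Col7a1*, which tie basement membranes to the stroma below, were also called lower. *Col15a1* ran from 1.75 to 12.2 TPM in mEFs against 23.6, 21.8 and 21.9 TPM at E13.5 (log2 −1.90), and *Col7a1* from 0.54 to 2.69 TPM against 5.82, 6.62 and 6.58 TPM (log2 −1.72). Endothelial markers, which mark cells with a basement membrane of their own, summed to between 200.1 and 215 TPM at E13.5 and between 16.7 and 45.7 TPM in WT mEFs, with 6 of 6 called lower, and their part in these differences was not tested. All 7 members were called higher in mEFs than in brain.

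The other collagens held both the largest rises and the largest falls of any collagen against E13.5. Type VI collagen forms beaded microfibrils around cells. *Col6a1* stood at 6.81, 6.37 and 5.28 TPM at E9.5, at 172.7, 148.8 and 151.3 TPM at E13.5, at 34.9, 25.3 and 22.0 TPM in brain and between 73.7 and 317.7 TPM in mEFs (median 194.0 TPM). The E13.5 libraries lay inside the mEF range, and the log2 difference of 0.80 (adjusted p = 5.47e-05) was under 2-fold. *Col6a1*, *Col6a2* and *Col6a3* were all called higher at E13.5 than at E9.5, by log2 differences of 4.38, 4.44 and 4.72. *Col8a1*, a short-chain network collagen, rose from 0.99, 0.42 and 0.53 TPM at E9.5 to 13.6, 13.9 and 13.8 TPM at E13.5 and ran from 33.6 to 128.1 TPM in mEFs (log2 3.07 against E13.5), while its partner chain *Col8a2* stood at 61.2, 57.3 and 59.7 TPM at E13.5 and between 0.66 and 10.2 TPM in mEFs (log2 −3.45, SE 0.28, adjusted p = 8.077e-10). The chains of type VIII collagen thus lay on opposite sides of the embryo, with no overlap in either. *Col12a1*, which coats fibrils under load, stood at 65.6, 58.8 and 59.5 TPM at E13.5 and between 155.2 and 333.7 TPM in mEFs (log2 2.71).

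*Col13a1*, a transmembrane collagen of cell contacts, was the only member called lower in mEFs than in brain. It stood at 6.83, 6.94 and 7.71 TPM at E13.5, at 0.33, 0.44 and 1.42 TPM in brain and between 0 and 0.90 TPM in mEFs, on between 0 and 15 counts a library. Brain and mEF libraries overlapped, and without WT brain replicate 3, the library of the other kit, the log2 difference of −1.84 became −0.84 (adjusted p = 0.09667) and 38 members were called, all of them higher. Against E13.5 embryos the difference was −4.92 (SE 0.31, adjusted p = 2.406e-11), with every mEF library lower. *Col14a1* and *Col16a1*, which sit on fibril surfaces, were also called lower than at E13.5. *Col14a1* ran from 1.78 to 16.2 TPM in mEFs against 41.8, 38.8 and 37.1 TPM (log2 −2.07), and *Col16a1* from 3.18 to 14.1 TPM against 49.9, 49.8 and 48.8 TPM (log2 −1.88).

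Fibronectin, the adhesive scaffold on which collagen is assembled, was among the abundant messages of these cells. *Fn1* stood at 196.5, 185.2 and 206.2 TPM at E9.5, at 207.8, 182.2 and 183.8 TPM at E13.5, at 21.3, 17.6 and 15.7 TPM in brain and between 652.7 and 2596 TPM in mEFs (median 840.4 TPM). Every mEF library was above every other WT library (log2 3.09 against E13.5, SE 0.11, adjusted p = 1.18e-14), and the embryo ages did not differ by 2-fold (−0.33). *Fbn1* and *Fbn2* encode the fibrillins, the microfibrils on which elastin is laid. *Fbn1* ran from 86.2 to 226.4 TPM in mEFs against 36.7, 35.6 and 35.3 TPM at E13.5, with no overlap (log2 2.56, SE 0.09, adjusted p = 9.015e-15). *Fbn2*, the fibrillin of early development, ran from 39.8 to 138.9 TPM against 63.1, 64.1 and 68.2 TPM. These ranges overlapped in TPM but not in CPM, where the lowest mEF library was at 342.9 and the highest E13.5 library at 291.7. The log2 difference of 1.00 (adjusted p = 3.048e-06) was 0.33 on the TPM scale, below 2-fold. *Eln*, the elastin gene, had the steepest climb between the embryo ages of the 4, from 0.63, 1.02 and 0.57 TPM to 53.9, 45.3 and 45.6 TPM (log2 5.72, adjusted p = 1.906e-11), and stood between 7.08 and 51.5 TPM in mEFs. Its log2 difference from E13.5 was −0.55 and passed 2-fold only on the TPM scale, at −1.18.

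The lysyl oxidases were all called higher in mEFs than in each tissue. *Lox*, which oxidises lysines of collagen and elastin so that they can crosslink, stood at 2.06, 1.59 and 1.74 TPM at E9.5, at 59.2, 59.9 and 56.6 TPM at E13.5, at 0.66, 0.79 and 0.80 TPM in brain and between 562.6 and 1343 TPM in mEFs (median 872.9 TPM). The 4 groups stood in separate ranges, and the log2 differences were 4.52 against E13.5 (SE 0.10, adjusted p = 2.136e-17), 10.69 against brain (SE 0.14, adjusted p = 2.265e-21) and 4.74 between the embryo ages (SE 0.11, adjusted p = 3.828e-16). *Loxl1*, needed for elastic fibre upkeep, ran from 117.0 to 359.4 TPM in mEFs against 24.6, 22.6 and 21.7 TPM at E13.5 (log2 3.75). *Loxl2*, which acts on basement membrane collagen, ran from 126.9 to 304.4 TPM against 71.4, 67.6 and 66.8 TPM (log2 2.02), and it alone of the 3 was already at 87.7, 83.5 and 94.1 TPM at E9.5.

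Of the 6 proteoglycans 2 were called higher in mEFs than at E13.5 and none lower. *Bgn*, biglycan, stood at 139.2, 120.0 and 121.5 TPM at E13.5, at 28.5, 22.9 and 15.4 TPM in brain and between 2373 and 5073 TPM in mEFs (median 2854 TPM). No mEF library came near an embryo library, and the log2 difference was 5.29 against E13.5 (SE 0.18, adjusted p = 3.922e-15). *Dcn*, decorin, which binds type I fibrils, stood at 8.59, 6.32 and 4.54 TPM at E9.5, at 237.1, 218.0 and 203.2 TPM at E13.5, at 45.6, 36.4 and 56.1 TPM in brain and between 70.3 and 472.3 TPM in mEFs. The mEF range held the E13.5 range, and the log2 difference of 0.62 (adjusted p = 0.0006326) turned to −0.08 on the TPM scale. *Lum*, lumican, stood at 200.1, 213.4 and 201.2 TPM at E13.5 and between 19.6 and 269.4 TPM in mEFs (log2 −0.67, adjusted p = 0.001825, and −1.36 on the TPM scale, where it passed 2-fold). *Ogn*, osteoglycin, held 9, 2 and 3 counts in the E9.5 libraries, which is at or near the floor, and stood at 67.7, 82.0 and 70.6 TPM at E13.5 and between 153.7 and 725.8 TPM in mEFs (log2 2.70). *Vcan*, versican, a large hyaluronan-binding proteoglycan, was level across embryos at 133.3, 123.1 and 148.7 TPM at E9.5 and 121.7, 130.8 and 127.8 TPM at E13.5, and ran from 118.0 to 228.7 TPM in mEFs.

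All 5 matricellular genes were called higher in mEFs than in either embryo and than in brain. *Sparc*, a collagen-binding glycoprotein, was the top member by its mEF median and ranked 50 of all genes. It stood at 160.2, 156.8 and 146.8 TPM at E9.5, at 680.7, 612.7 and 612.2 TPM at E13.5, at 883.9, 1216 and 826.1 TPM in brain and between 2250 and 5263 TPM in mEFs. It was the only member with more RNA per length in brain than in E13.5 embryos in every library, and mEFs were above both (log2 3.00 against E13.5 and 2.24 against brain). *Thbs1*, thrombospondin 1, which can activate latent TGF-beta, stood at 19.4, 16.6 and 21.4 TPM at E9.5, at 50.6, 52.8 and 54.8 TPM at E13.5, at 1.96, 1.56 and 2.16 TPM in brain and between 654.7 and 3407 TPM in mEFs. Its groups stood in separate ranges, and its log2 differences of 5.49 against E13.5 (adjusted p = 2.196e-15) and 10.16 against brain (adjusted p = 6.958e-19) were the largest among the matricellular genes. *Postn*, periostin, which aids collagen crosslinking, stood at 348.1, 296.5 and 304.1 TPM at E13.5 and between 270.1 and 1009 TPM in mEFs. Its log2 difference of 1.60 was 0.97 on the TPM scale, just under 2-fold. The groups overlapped in TPM but not in CPM, where the lowest mEF library was at 666.4 and the highest E13.5 library at 437.1.

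*Tnc*, tenascin C, an adhesion-modulating protein of wounds and growing tissue, stood at 14.5, 13.6 and 16.8 TPM at E9.5, at 43.2, 42.0 and 42.3 TPM at E13.5, at 1.88, 1.55 and 3.33 TPM in brain and between 293.2 and 767.2 TPM in mEFs. Every mEF library was above all others (log2 3.94 against E13.5, SE 0.16). The gene has 2 annotated starts, and whether mEFs use either was not tested. An ATAC-seq peak came within 300 bases of either of them in only 2 of 12 mEF libraries. The window at 1 of these starts, chr4:63681710-63682009 on the minus strand of mm9, is therefore shown, with capitals for ATTGG just inside the transcript.
Tnc: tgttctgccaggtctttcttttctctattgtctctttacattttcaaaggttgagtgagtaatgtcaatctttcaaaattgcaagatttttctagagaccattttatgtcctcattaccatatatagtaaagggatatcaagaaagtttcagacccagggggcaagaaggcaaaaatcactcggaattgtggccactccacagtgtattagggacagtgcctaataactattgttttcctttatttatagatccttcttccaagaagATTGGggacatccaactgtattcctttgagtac

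Genes that make, process and bind the matrix were counted over whole lists against E13.5, where 16.8% of all genes were called higher and 31% lower. Of 21 genes for collagen folding and modification 11 were called higher and 2 lower. Examples are *P4ha1*, a subunit of prolyl 4-hydroxylase (log2 2.13), and *Colgalt2*, a collagen galactosyltransferase (log2 −2.66). Of 7 genes for propeptide removal 3 were called higher and none lower, among them *Pcolce*, the enhancer of procollagen C-proteinase, at 75.5, 76.3 and 76.1 TPM at E13.5 and between 338.5 and 940.3 TPM in mEFs (log2 3.57). Of 15 matrix proteases and inhibitors 11 were called higher and none lower, with *Timp1*, an inhibitor of metalloproteinases, at 19.2, 19.9 and 19.3 TPM at E13.5 and between 520.4 and 1282 TPM in mEFs (log2 6.26). Of 18 matrix receptors 8 were called higher and 1 lower, led by *Cd44*, the hyaluronan receptor (log2 6.02). Of 17 genes of TGF-beta signalling and its targets 13 were called higher and none lower. Against brain the folding list had 18 higher and 1 lower, with the collagen chaperone *Serpinh1* at 27.6, 21.0 and 30.0 TPM in brain and between 909.3 and 1847 TPM in mEFs. Markers of smooth muscle and myofibroblasts moved in the same direction, from between 300.4 and 328 TPM summed at E13.5 to between 4408 and 10139 TPM in WT mEFs (*Acta2* log2 5.12), and their part in the matrix differences was not tested.

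The 4 WT mEF sets differed widely in matrix RNA although all were labelled WT. Every one of the 40 members was called across the sets, but so were 88.1% of the 14437 genes tested, so the call itself is close to the background. The size was not: in CPM 36 of 40 members (90%) spanned at least 2-fold between the highest and the lowest set mean, against 45.2% of all genes and 32.7% of the 9119 genes at 10 CPM or more. The median span was 2.79-fold for members and 1.91-fold for all genes, while libraries of a set differed by a median coefficient of variation of 13.2% and 11.4%. The WT cells of the *Chaserr*+/- set held the highest mean for 21 members (52.5%, against 18.3% of all genes) and those of the *Chaserr*-/- set for 15 (37.5%, against 30.5%). The *Chd2*m/m set was highest for none and lowest for 22, where 19.7% and 20.6% of all genes were highest and lowest in that set. On the TPM scale it was lowest for 27 members, but 42.9% of all genes were then lowest there too.

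**Figure D2:**
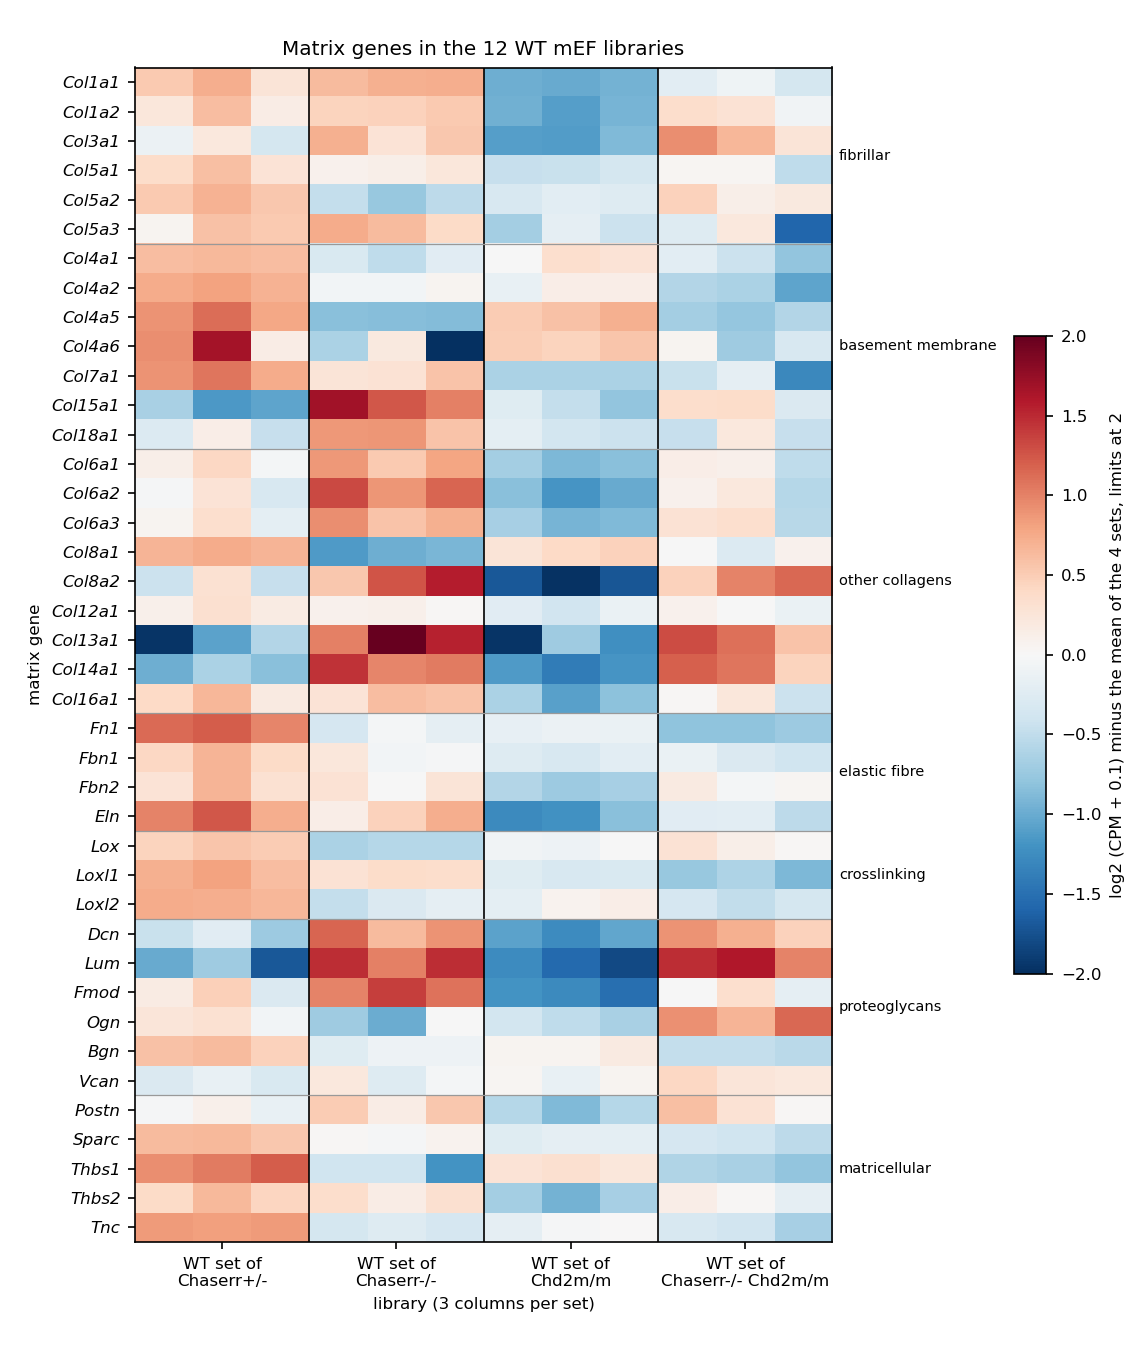
Each matrix gene (rows) in the 12 WT mEF libraries (columns, grouped by set), as log2(CPM + 0.1) minus the mean of the 4 set means, with the colour scale limited at 2 in either direction. The *Chd2*m/m set has the lowest mean for 22 of the 40 rows and the highest for none, and *Lum* and *Dcn* are high in the *Chaserr*-/- and double mutant sets.

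The sets did not differ along a single line. *Lum* averaged 43.2 ± 14.1 CPM in the WT cells of the *Chaserr*+/- set, 231.2 ± 40.1 in those of the *Chaserr*-/- set, 31.9 ± 6.08 in those of the *Chd2*m/m set and 238.7 ± 50.5 in those of the double mutant set (SD, n = 3 each), a 7.49-fold span (adjusted p = 3.592e-08). *Dcn* was likewise high in the *Chaserr*-/- and double mutant sets, with 159.9 ± 27.1, 411.7 ± 74.4, 100.4 ± 7.71 and 355.4 ± 52.7 CPM (adjusted p = 5.418e-08). *Fmod*, fibromodulin, another collagen-binding proteoglycan, averaged 54.6, 110.2, 19.6 and 51.6 CPM in that order, a 5.62-fold span. All 3 proteoglycans were lowest in the *Chd2*m/m set.

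*Fn1*, *Thbs1* and *Tnc* took another order. *Fn1* averaged 10830 ± 881 CPM in the *Chaserr*+/- set, 4437 ± 438 in the *Chaserr*-/- set, 4562 ± 87.5 in the *Chd2*m/m set and 2940 ± 97.8 in the double mutant set (SD, n = 3 each, adjusted p = 2.296e-09). *Thbs1* averaged 10550 ± 1044, 3278 ± 946.8, 6103 ± 198.7 and 3137 ± 213.3 CPM in the same order (adjusted p = 3.276e-07), and *Tnc* 3050, 1372, 1637 and 1248 CPM. All 3 were highest in the *Chaserr*+/- set and lowest in the double mutant set. The matricellular genes *Postn* and *Thbs2* did not share this order and were lowest in the *Chd2*m/m set. *Col1a1* averaged 6439 ± 1042, 7248 ± 262.9, 2282 ± 46.0 and 3886 ± 360.6 CPM, with its floor in the *Chd2*m/m set (adjusted p = 2.736e-08). *Lox*, *Bgn* and *Sparc* had set ranges that did not overlap for any of the 6 pairs of sets. The steadiest members were *Col12a1*, with set means between 1468 and 1999 CPM (1.36-fold), and *Vcan*, between 830.3 and 1208 CPM (1.46-fold).

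Markers of other cells moved between the sets as well. The 8 macrophage markers summed to between 231 and 305 TPM in the *Chaserr*+/- set, between 967 and 1143 in the *Chaserr*-/- set, between 426 and 638 in the *Chd2*m/m set and between 647 and 764 in the double mutant set. Skeletal muscle markers followed a like order, from between 206 and 253 TPM in the first to between 695 and 1431 TPM in the second. The 6 erythroid markers ran from 4.36 to 8.77 TPM in the *Chaserr*+/- set, where *Alas2* and *Hbb-bh1* were at 0 in all 3 libraries, and from 420.0 to 881 TPM in the *Chaserr*-/- set. Fibroblast markers were highest in the *Chaserr*+/- set, between 6035 and 6236 TPM, and lay between 4396 and 5742 TPM in the others. The part of these cells in the matrix differences was not tested, and litter, culture and library date cannot be told apart from set.

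No member was called in any of the 7 comparisons of a mutant with its own WT libraries. The background was low as well. For *Chaserr*+/- libraries edgeR called 0% of all genes at E9.5, 0.0314% at E13.5, 0% in brain and 0.173% in fibroblasts. In the other fibroblast comparisons it was 0.118% for *Chaserr*-/-, 0.0145% for *Chd2*m/m and 0.0924% for the double mutant. At an unadjusted p under 0.05 the members counted 8, 5, 7, 4, 13, 1 and 17 in that order, and the direction and background of each count are given below. DESeq2 called 0, 1, 0, 0, 8, 0 and 8 members, beside 0.0262%, 0.114%, 0.00505%, 0.451%, 13.7%, 0.0655% and 1.14% of all genes.

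**Figure D3:**
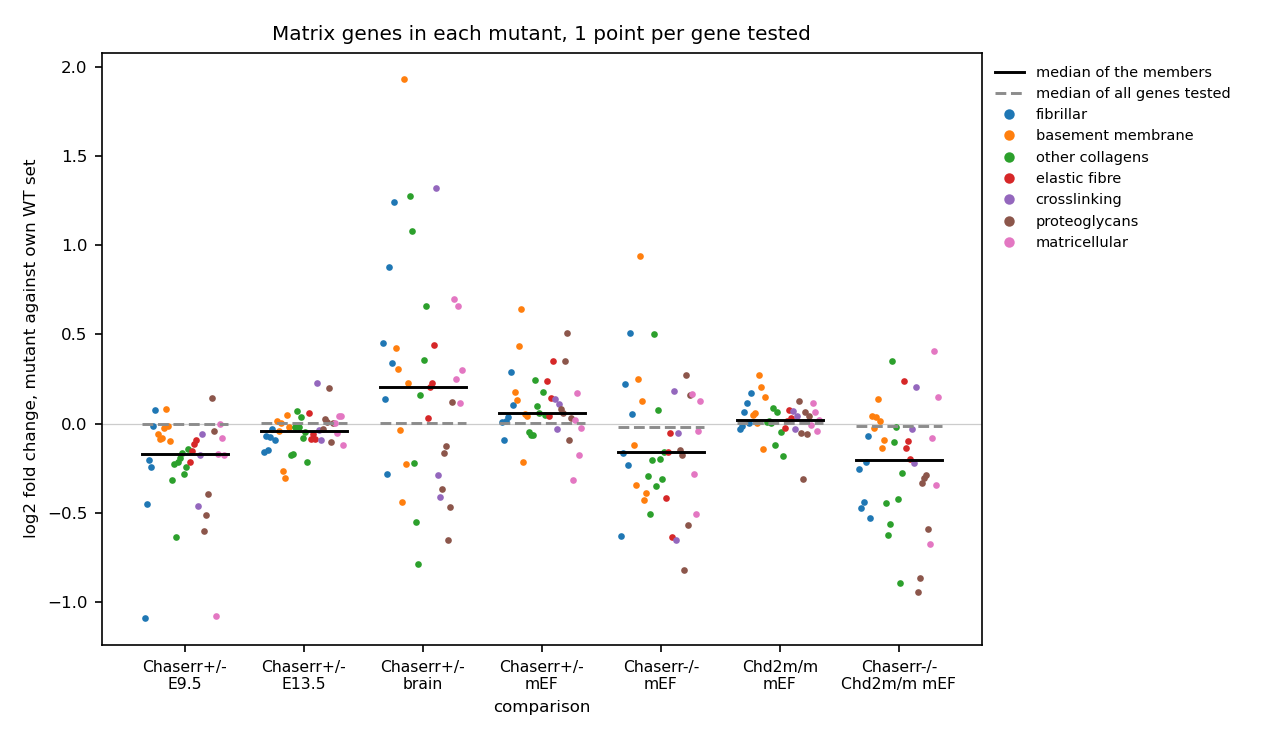
Log2 difference between mutant and WT for each matrix gene in the 7 comparisons, with 1 point per gene and a line at 0. Most points lie below 0 in *Chaserr*+/- embryos of both ages (36 of 39 and 26 of 40), *Chaserr*-/- mEFs (27 of 40) and double mutant mEFs (31 of 40), and no point passed the adjusted p of 0.05.

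In *Chaserr*+/- E9.5 embryos 36 of 39 members tested had a difference below 0, with a median of −0.17 against −2e-04 for all genes. With a correction for GC content and length 30 of 39 were below 0. At an unadjusted p under 0.05 none was higher and 8 were lower, beside 1.56% and 1.57% of all genes. *Fn1* stood at 172.6, 155.6 and 168.5 TPM against 196.5, 185.2 and 206.2 TPM in WT, with no overlap (log2 −0.22, SE 0.06, unadjusted p = 0.005573 and adjusted p = 1). *Col1a1* stood at 53.9, 29.8 and 24.4 TPM against 111.4, 72.4 and 50.3 TPM, so the groups overlapped (log2 −1.09, unadjusted p = 0.01722). *Postn* behaved alike, at 64.4, 26.9 and 21.4 TPM against 109.1, 81.1 and 52.1 TPM (log2 −1.08, unadjusted p = 0.03893). In both genes replicate 1 was the highest library of its group. Skeletal muscle markers summed to between 36.4 and 931 TPM in *Chaserr*+/- and between 694 and 999.7 TPM in WT embryos, and smooth muscle and myofibroblast markers to between 68.9 and 329 TPM against between 246 and 348 TPM. Their part in these values was not tested.

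At E13.5 the members' median was −0.04 against 0.0036, with 14 above and 26 below 0. None was higher and 5 were lower at an unadjusted p under 0.05, beside 3.09% and 3.25% of all genes. *Col16a1* stood at 37.0, 44.3 and 42.3 TPM against 49.9, 49.8 and 48.8 TPM in WT, without overlap (log2 −0.21, unadjusted p = 0.0006778 and adjusted p = 0.7316 by edgeR), and DESeq2 called this gene alone. *Col3a1* stood at 689.2, 825.1 and 860.0 TPM against 936.6, 903.6 and 890.6 TPM (log2 −0.15).

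In *Chaserr*+/- brains the lean was upward, with a median of 0.20 against 0.0058 and 25 of 39 members above 0. At an unadjusted p under 0.05, 7 were higher and none lower, beside 1.01% and 1.46% of all genes, while no gene of any kind passed the adjusted threshold. *Col6a1* stood at 52.3, 57.8 and 95.4 TPM against 34.9, 25.3 and 22.0 TPM in WT, with no overlap (log2 1.28, SE 0.28, unadjusted p = 0.002522 and adjusted p = 0.9997). *Col6a2* stood at 17.5, 17.04 and 28.9 TPM against 10.8, 8.29 and 10.4 TPM (log2 1.08), and *Col5a1* at 6.45, 5.69 and 9.79 TPM against 4.15, 3.74 and 3.77 TPM (log2 0.88). *Chaserr*+/- replicate 3, made with the other kit, was the highest library for all 3. Without it the members' median turned to −0.23, but WT replicate 3, of the same kit, stayed in that fit. Kit and genotype were thus mixed there. *Col6a1* remained above 0 among SENSE libraries alone (log2 0.87, adjusted p = 0.2908).

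In *Chaserr*+/- mEFs, 29 of 39 members were above 0, by a median of 0.06 against 0.0011. The counts at an unadjusted p under 0.05 were 4 higher and none lower, beside 5.25% and 3.12% of all genes. They were *Col4a5*, *Ogn*, *Eln* and *Col8a1*. *Col4a5*, an alpha5 chain of basement membranes, stood at 20.6, 22.6 and 19.8 TPM against 14.5, 17.9 and 13.1 TPM (log2 0.44, adjusted p = 0.1924), and *Eln* at 55.0, 52.7 and 55.7 TPM against 40.6, 51.5 and 33.9 TPM (log2 0.35, adjusted p = 0.3736). Neither pair of groups overlapped. *Adamts5*, an aggrecan-cutting protease of the list of matrix proteases and inhibitors, was called higher (log2 0.71, adjusted p = 0.0262). Skeletal muscle markers summed to between 308 and 524 TPM against between 206 and 253 TPM in WT, and bone markers to between 48.2 and 91.04 TPM against between 27.9 and 35.1 TPM. Their part was not tested.

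In *Chaserr*-/- mEFs *Bgn*, *Col1a1*, *Fmod* and *Loxl1*, all lower, shared the lowest adjusted p of the members by edgeR, 0.0522. *Col5a2*, which was higher, stood near them at 0.05603. How many of all genes stood as near was not counted. Calls among all genes rose from 16 to 1407 with no filter on low counts. The list had a median of −0.16 against −0.022, with 27 of 40 below 0, and with a correction for GC content and length the median turned to 0.05 with 18 below 0. Among all 40, 2 higher and 11 lower had an unadjusted p under 0.05, beside 17.7% and 16.1% of all genes. *Bgn* stood at 1946, 1985 and 2117 TPM against 2645, 3005 and 2912 TPM in WT (log2 −0.57, SE 0.11), *Col1a1* at 1200.1, 1436 and 1732 TPM against 2048, 2229 and 2187 TPM (log2 −0.63), and *Fmod* at 31.3, 46.9 and 45.4 TPM against 61.3, 82.0 and 65.5 TPM (log2 −0.82). In each the groups were apart, and each had an adjusted p of 0.0522, as had *Loxl1* (log2 −0.65). With the correction *Bgn* was −0.48 (adjusted p = 0.04996), *Fmod* −0.63 (adjusted p = 0.05249), *Col1a1* −0.15 (adjusted p = 0.4575) and *Loxl1* −0.15 (adjusted p = 0.3619), so the first pair held their size and the latter lost most of it. *Col5a2* went up, at 270.0, 195.2 and 245.4 TPM against 170.1, 142.6 and 163.4 TPM (log2 0.51, adjusted p = 0.05603).

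The count in *Chaserr*-/- mEFs depended on single libraries and on the tool. It was 4 without *Chaserr*-/- replicate 1 (10%, against 7.33% of all genes), 7 without *Chaserr*-/- replicate 2 (17.5%, against 20.5%) and 8 by DESeq2 (20%, against 13.7%). Macrophage markers summed to between 731 and 774 TPM in these mutants against between 967 and 1143 TPM in WT, with *Cd68* and *Laptm5* called lower, and skeletal muscle markers to between 481 and 574 TPM against between 695 and 1431 TPM. Their part in the members' values was not tested.

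In *Chd2*m/m mEFs, with 2 libraries, the members' median was 0.02 against 5e-04, and at an unadjusted p under 0.05 none was higher and 1 lower, beside 2.11% and 2.4% of all genes. That gene was *Fmod*, at 8.68 and 7.59 TPM against 11.4, 10.0 and 9.11 TPM in WT (log2 −0.31, unadjusted p = 0.02533 and adjusted p = 0.9366). *Sparc* stood at 2458 and 2538 TPM against 2316, 2250 and 2403 TPM (log2 0.11).

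In *Chaserr*-/- *Chd2*m/m mEFs 31 of 40 members were below 0, with a median of −0.21 against −0.0117, and the correction for GC content and length left 32 below. At an unadjusted p under 0.05, 3 were higher and 14 lower, beside 4.16% and 5.73% of all genes. *Vcan* stood at 153.1, 157.2 and 131.1 TPM against 228.7, 213.2 and 206.1 TPM in WT (log2 −0.59, SE 0.11, adjusted p = 0.0782). *Dcn* stood at 180.3, 150.6 and 253.9 TPM against 415.5, 379.4 and 321.2 TPM (log2 −0.94, SE 0.18, adjusted p = 0.0785). *Postn* stood at 584.5, 540.5 and 487.5 TPM against 1009, 848.2 and 700.1 TPM (log2 −0.67, adjusted p = 0.1011). All 3 were lower in every mutant library than in any WT library. *Thbs1* was the opposite, at 1200, 1480 and 1432 TPM against 1055, 1067 and 964.0 TPM (log2 0.41, adjusted p = 0.1768).

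Outside the members, the collagen-degrading cathepsin gene *Ctsk* fell in the double mutants, from 42.5, 41.7 and 36.9 TPM to 18.5, 17.4 and 24.1 TPM (log2 −1.03, adjusted p = 0.03387), and the TGF-beta target *Ccn2* rose, from 235.6, 247.8 and 219.6 TPM to 449.2, 491.4 and 509.7 TPM (log2 1.04, adjusted p = 0.002086). No member was called here, but 9 were without WT replicate 3 (1.41% of all genes), 8 by DESeq2 (1.14%) and 2 with the replicate number as a block (0.533%), which were *Dcn* (log2 −0.97, adjusted p = 0.03372) and *Postn* (log2 −0.66, adjusted p = 0.03431). Skeletal muscle markers summed to between 652 and 854 TPM against between 453 and 600.1 TPM in WT, cartilage markers to between 106 and 126 TPM against between 42.5 and 79.8 TPM, and macrophage markers to between 405 and 617 TPM against between 647 and 764 TPM. Their part was not tested.

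Set beside each other, the WT sets differed by more than the mutants did. The median member changed by 1.07-fold in either direction in *Chaserr*+/- mEFs, 1.18-fold in *Chaserr*-/-, 1.04-fold in *Chd2*m/m and 1.19-fold in double mutants, and spanned 2.79-fold between the WT sets. Every member tested had the larger span between sets, except *Vcan* in the double mutants. A span over 4 groups is wider by construction than a difference of 2, so these values are a description.

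The *Chaserr*-/- effect was also compared with the double mutant effect, as the first minus the second in a fit of all 23 mEF libraries. Each effect was taken against the WT cells of its own set. The double mutant effect thus joins the loss of *Chaserr* with the mutation of *Chd2*. The contrast does not isolate the loss of *Chaserr* in *Chd2*m/m cells. Of the 40 members 6 were called (15%), against 15.6% of the 15124 genes tested, so the list as a whole was at the background, with 4 higher and 2 lower beside 10.2% and 5.38% of all genes. *Thbs1* had 4068, 4063 and 2294 CPM in WT and 2566, 2218 and 2547 CPM in *Chaserr*-/- mEFs, and 3438, 3332 and 3045 CPM in WT and 3790, 4712 and 4526 CPM in the double mutants. Its libraries leaned down in the first and lay wholly above WT in the second, a difference of −0.91 (SE 0.21, adjusted p = 0.01298). *Fn1* had 4243, 5183 and 4664 CPM in WT and 3320, 3022 and 4212 CPM in *Chaserr*-/- mEFs, and 2993, 3002 and 3208 CPM in WT and 3626, 3724 and 3506 CPM in the double mutants. It was thus below WT in every library of the first and above WT in every library of the second, a difference of −0.65 (SE 0.14, adjusted p = 0.01244).

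*Vcan*, *Postn*, *Dcn* and *Col5a2* differed in the other direction. *Vcan* had 1218, 880.0 and 1006 CPM in WT and 1387, 1067 and 1015 CPM in *Chaserr*-/- mEFs, and 1364, 1214 and 1202 CPM in WT and 873.8, 911.8 and 719.8 CPM in the double mutants (difference 0.76, SE 0.18, adjusted p = 0.01407). Only the double mutant stood apart from its WT cells. *Postn* had a difference of 0.85 (SE 0.25, adjusted p = 0.03107), *Dcn* of 0.80 (SE 0.26, adjusted p = 0.04285) and *Col5a2* of 0.58 (SE 0.19, adjusted p = 0.04493). Over 16 alternative analyses *Thbs1*, *Fn1* and *Vcan* kept an adjusted p under 0.05 in all 16, *Postn* in 11, *Col5a2* in 9 and *Dcn* in 8. The mutants come from different sets, and markers differed with them: 6 of 6 skeletal muscle markers were called lower in the same contrast (*Acta1* −1.87). Of the 8 fibroblast markers *Twist1* (1.04) and *Prrx1* (0.76), called higher, are examples. The others are not given, so no shift of that list is read from this pair. The part of these markers was not tested. *Ccn2*, a TGF-beta target, had a difference of −1.28.

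**Figure D4:**
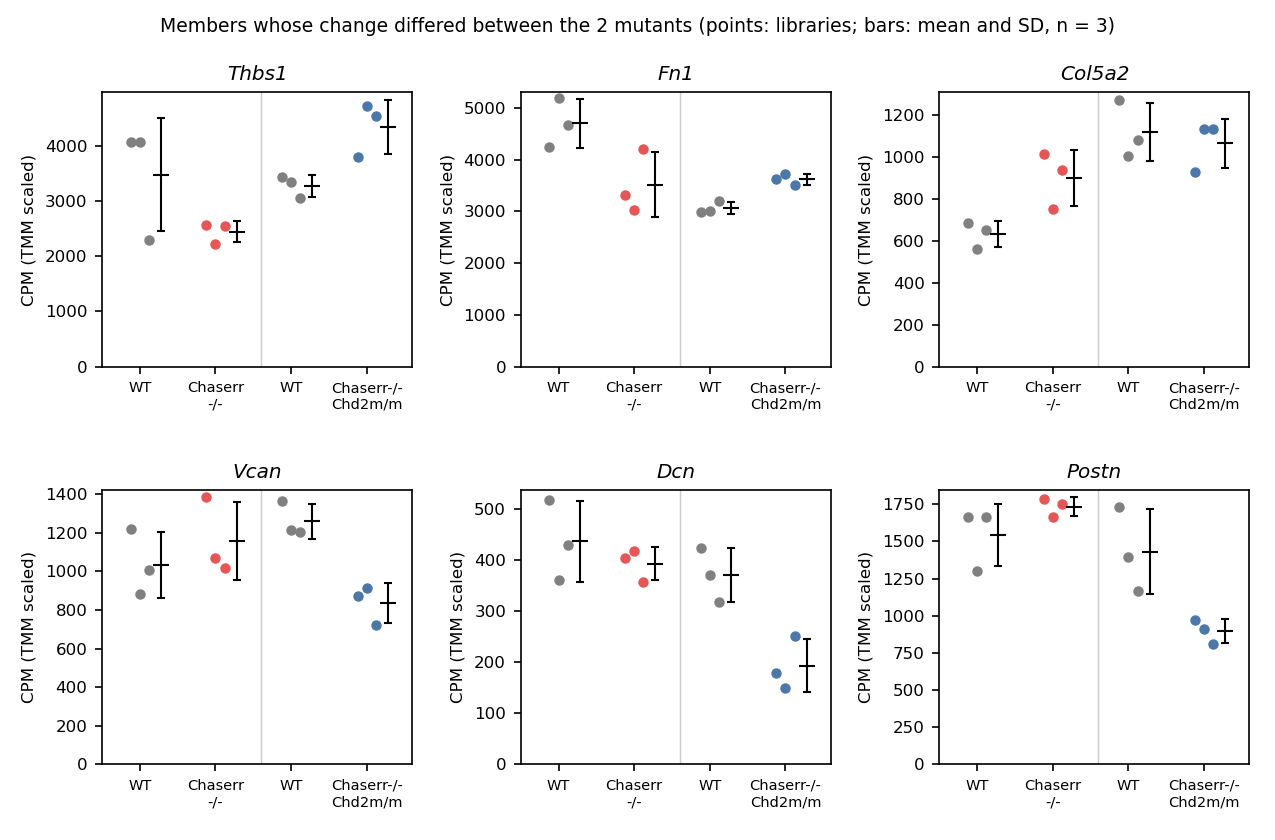
Scaled counts (CPM) of the 6 members whose change differed between the *Chaserr*-/- and the double mutant mEFs, with 1 point per library and bars for the mean and SD (n = 3). *Thbs1* and *Fn1* are above WT only in the double mutants, and *Vcan*, *Dcn* and *Postn* are below WT in the double mutants.

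Most members had a peak at an annotated start in most mEF libraries, but not all of the abundant ones did. A promoter peak was counted where a peak reached within 300 bases of an annotated start. A peak at a start missing from the annotation is not counted, and which starts mEFs use was not tested. The 12 libraries held between 18491 and 93315 peaks, and between 15 and 38 of the 40 members had a promoter peak (37.5% to 95%), where 34.8% to 63.0% of 22219 genes had one. Peaks were found in every library for 13 members (32.5%, against 33.2% of all genes): *Col5a1*, *Col5a2*, *Col5a3*, *Col4a1*, *Col4a2*, *Col6a2*, *Col12a1*, *Fn1*, *Fbn1*, *Lox*, *Loxl1*, *Sparc* and *Thbs2*. The count rests on 1 thin library, WT replicate 2 of the double mutant set with 18491 peaks, and without it 22 members (55%, against 43.0%) had a peak in every library. Among genes at 10 TPM or more in mEFs it was 20 of 31 members (64.5%), against 80.3% of all such genes. *Col1a1*, *Col1a2* and *Col3a1* had a peak in 11 libraries each, while *Bgn*, the proteoglycan with the most RNA, had one in 5 and *Tnc* in 2. Only *Col4a6* had none, where 34.1% of all genes had none. Where members had a promoter peak, its median enrichment over the local background was between 5.66 and 7.31-fold by library, below the 7.64 to 11.1-fold of all genes.

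**Figure D5:**
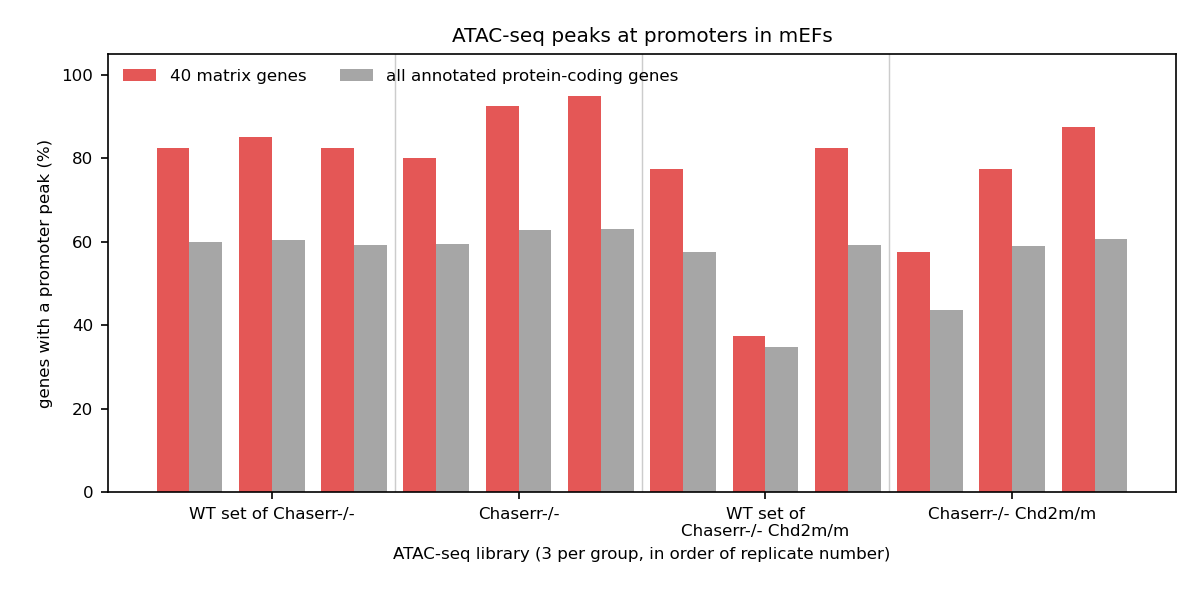
Percent of matrix genes and of all genes with an ATAC-seq peak within 300 bases of an annotated start, with a pair of bars for each of the 12 mEF libraries. Members exceed all genes in every library, and the library with 18491 peaks stands lowest, at 37.5% and 34.8%.

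The letters of the promoters were counted over the same 300-base windows. TATAAA on the gene's strand occurred in 5 of 40 members (12.5%, against 9.07% of all promoters). CCAAT on either strand occurred in 16 (40%, against 37.7%), and TGANTCA on either strand in 2 (5%, against 6.82%), *Col6a1* and *Lum*. GGGCGG on either strand occurred in 26 (65%, against 44.8%), and the median GC content was 60.7% against 55.7%. A match describes the letters and not a bound site.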

How the data were processed

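Expression was measured in 47 RNA-seq libraries and accessible chromatin in 12 ATAC-seq libraries. The authors deposited an expected count and a TPM for each gene and library, made by RSEM on RefSeq transcripts of mouse. They also deposited ATAC-seq peaks, called by MACS2 for each library on Bowtie2 alignments to mm9, each with a fold enrichment (a ratio over the local background) and a −log10 q value. Versions of these tools are not given in the sources used here. The 4C files were not used.

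The expected counts, an RSEM estimate, were rounded to whole numbers. In edgeR 4.0.16 (R 4.3.3), genes kept by filterByExpr were tested together by the quasi-likelihood F-test on TMM-scaled counts, with Benjamini-Hochberg adjustment. WT tissues were fitted together, the 4 WT mEF sets by an F-test across sets, each mutant against its own WT libraries, and the difference between the mutants' effects in a fit of all 23 mEF libraries. Tissue calls needed an adjusted p under 0.05 and at least 2-fold, other calls an adjusted p under 0.05. Groups do not overlap where every library of a group is above or below every library of the other, in CPM. Libraries of a group differed by more than sampling noise, so none was counted as a duplicate.

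The members, their roles, the marker and pathway lists and the rule for naming genes were chosen with earlier results of these data known. The rule named 17 matrix genes in every comparison, up to 6 called members at either end of the ranking by fold change, or the 4 with the smallest p where fewer than 3 were called, and up to 3 called genes of each pathway list. Of these only genes with values that can be read without a fold against a group near 0 were printed. Members outside the rule, such as *Col5a3* and *Loxl2*, were named as examples of their group after their values were seen.

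Alternatives were DESeq2 1.42.0 and its size factors, no filter on low counts, a filter of at least 10 counts in every library, TMM without the members, limma 3.58.1 on log2(TPM + 1) for genes at 1 TPM in at least 3 libraries, a correction for GC content and length by lowess (span 0.3), SENSE libraries alone, a replicate block, and leaving out each library in turn. Same-numbered brain libraries deviated together (correlations of 0.437, 0.529 and 0.747), with both replicate 3 libraries from the other kit, and no other groups did so for every number. The tests were checked on simulated counts. An item that the naming rule selects is not reported here. Promoters and annotated starts came from the GENCODE annotation of NCBIM37, the mm9 assembly.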

Additional observations from a re-analysis of the deposited data

Results flagged for a closer look

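For 6 members the change in *Chaserr*-/- mEFs differed from the change in *Chaserr*-/- *Chd2*m/m mEFs, each against its own WT cells. The difference between these changes was tested in a fit of 23 mEF libraries (edgeR, adjusted p under 0.05). The *Chaserr*-/- effect minus the double mutant effect, on the log2 scale, was −0.91 for *Thbs1* and −0.65 for *Fn1*. It was 0.58 for *Col5a2*, 0.76 for *Vcan*, 0.80 for *Dcn* and 0.85 for *Postn*. Of all genes 15.6% passed the same test and of the members 15%, so the list as a whole did not exceed the background.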

How the results depend on the processing

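No called value changed sign under any alternative run. Of the single values and medians recomputed, 4748 were unchanged. For a single value this means the same side of the threshold, and for a median a shift below the members' median standard error. Of the single values, 70 passed the threshold anew and 41 no longer passed it, and 12 medians moved further. Of the 4748, 163 changed sign, none of them called. Leaving out 1 library gave between 26 and 27 members called against E13.5 embryos, between 31 and 33 against E9.5 embryos, between 37 and 39 against brain, 31 throughout between the embryo ages, and between 39 and 40 across the WT sets. In the mutants it gave between 0 and 7 in *Chaserr*-/- mEFs, between 0 and 9 in double mutants (9 without WT replicate 3, 1 without mutant replicate 3) and 0 throughout in the other 5. The test of the difference between the *Chaserr*-/- and double mutant effects gave between 3 and 10 members. It gave 3 without WT replicate 5 or mutant replicate 1 of the *Chaserr*-/- set, or without replicate 1 of either double mutant group. Without WT replicate 3 of the double mutant set it gave 10.

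In *Chaserr*-/- mEFs 5 members were called with no filter on low counts and 5 with at least 10 counts in every library (1407 and 1383 of all genes, against 16), 8 by DESeq2, 1 with the correction for GC content and length and 12 in the fit of all 23 mEF libraries (30%, against 32.1% of all genes). In double mutants it was 5 with no filter (0.536% of all genes), 8 by DESeq2 and 3 in the fit of 23 libraries (0.701%). DESeq2 called 1 in E13.5 embryos. The cause was not tested. Without the thin library, an alternative chosen after seeing the data, 22 members had an ATAC-seq peak in every library.

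Between tissues and across WT sets, the replicate block was fitted without the WT libraries of the *Chaserr*-/- set. It gave 27, 31, 37 and 31 members called between tissues (E13.5, E9.5, brain and the embryo ages, in that order) and 38 across the remaining WT sets. It gave 2 in double mutants and 0 in the other mutants where it could be fitted. In the *Chd2*m/m and double mutant sets the number follows the word cross in the labels, and whether it marks a shared cross is not stated. The block with the GC and length correction gave 2 members for the double mutants, 2 for the *Chaserr*+/- mEFs, 1 for E9.5 embryos and 1 for *Chd2*m/m. In brain, where numbers paired by the check, it gave 0. WT libraries of the *Chaserr*-/- set are numbered 4 to 6, so no block could be fitted there. Kit cannot be told apart from tissue against embryos, and with 2 or 3 libraries a group small changes could be missed.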

Other observations

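Matrix messages were also present in the pulldown from Neuro2a cells, a mouse neuroblastoma line, with 2 libraries each. The 40 members took 0.0816% and 0.152% of TPM in the CHD2 pulldown, 0.0693% and 0.152% in the IgG control and 0.109% and 0.243% in the input, so the libraries overlapped. *Fn1* stood at 238 and 563 TPM with the CHD2 antibody, 54.0 and 402 TPM with IgG and 185 and 590 TPM in the input. *Sparc* stood at 299 and 439 TPM, 362 and 540 TPM, and 504 and 875 TPM in the same order.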
